A study of Mus musculus with 7 samples.

Results

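Gene expression in scraped colon epithelium 1 day after the end of a course of dextran sulfate sodium (DSS) was set against that of untreated mice, gene by gene. DSS is a sulfated polysaccharide that damages the colonic epithelium when mice drink it, and the resulting colitis is followed by repair of the lining once it is withdrawn. The colon epithelium consists of absorptive colonocytes, mucus-secreting goblet cells, hormone-releasing enteroendocrine cells and chemosensory tuft cells, all of which descend from stem cells at the crypt base. Surface colonocytes take up salt, water and minerals, goblet cells build the mucus layer, and injured epithelium is known to release antimicrobial proteins and chemokines that call in neutrophils.

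Each condition was represented by 1 RNA sequencing library made from equal amounts of RNA of 3 mice. The control group received no treatment, and the labels describe its pathology as normal. The DSS group drank 1.5% DSS for 5 days and was killed on day 1 after that course, with colitis as the labelled pathology. Both groups were female hCYP1A mice of the C57BL/6 strain, 6 weeks old, a line in which the human CYP1A genes take the place of the mouse ones, and in both the epithelium was scraped from the muscle layer. The series held 7 libraries in all, and the others came from later days or from mice also given the food carcinogen PhIP. The names of the deposited tables carry another number, 7 for the control and 3 for the DSS library, and the meaning of that number is not stated by the labels. With 1 pool per condition there is no measure of variation between mice, so every difference below is a description of these 2 libraries, without a test.

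The control library held 7664276 uniquely mapped reads and the DSS day 1 library 8730073, and 15960 and 15849 genes had at least 1 read. A gene was compared when it had at least 10 reads summed over both libraries, which 13440 of the 16767 genes listed in either library did, out of 18036 genes in the whole series. Ratios compare a gene's share of all unique reads, DSS day 1 over control, with an exact 95% interval that covers counting error only. A count of 0 allows up to 3 reads, and ratios against 0 reads were taken against that floor and are given as at least so many fold. The count in the other library was taken as it stands, so these figures are not interval bounds, which lie nearer to 1. The median log2 ratio over all compared genes was -0.02, with quartiles at -0.41 and 0.33. Mouse Cyp1a1 and Cyp1a2 had no reads in either library, and none of 4 Y-linked genes looked for had a read.

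At least 2-fold higher in the DSS day 1 library were 907 genes, 6.75% of those compared, and at least 2-fold lower were 1212, or 9.02%. The other 11321 lay between. The shares of 6.75% and 9.02% are the background for the counts of each list below. The higher genes took 1.46% of the control reads and 4.15% of the DSS day 1 reads, and the lower genes 7.02% and 2.46%. A difference of at least 4-fold was seen upward in 300 genes and downward in 278, and one of at least 16-fold in 32 and 18. Low counts carried much of this: 58.1% of the higher and 61.4% of the lower genes had fewer than 100 reads over both libraries, against 18.8% of the genes between. Among the 3766 genes with at least 1000 reads, 92 (2.44%) were higher and 120 (3.19%) were lower. With the interval bound nearest to no change in place of the ratio, 341 genes were at least 2-fold higher and 377 at least 2-fold lower. The plot of ratio against level shows this funnel, with a few abundant genes far outside it.

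**Figure D1:**
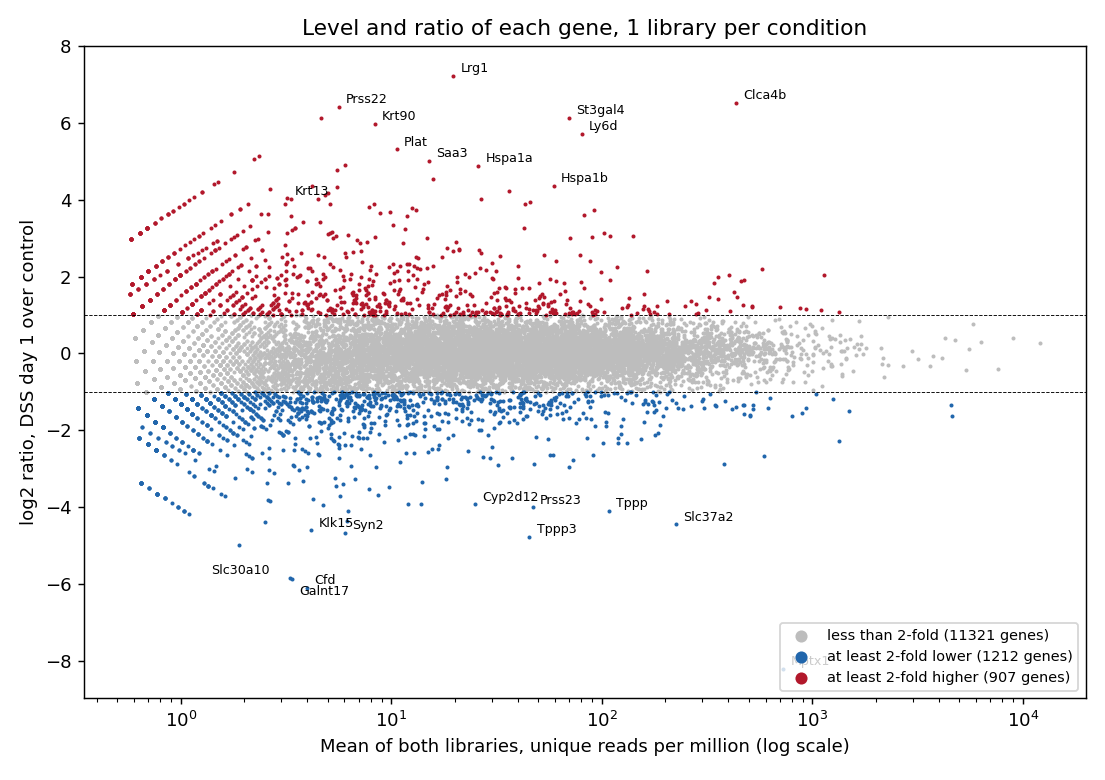
Each point is 1 of 13440 genes, with the mean level of both libraries on the horizontal axis (unique reads scaled to library size, log scale) and the log2 ratio of DSS day 1 over control on the vertical axis. Red points are the 907 genes at least 2-fold higher and blue points the 1212 at least 2-fold lower, dashed lines mark 2-fold, and the 11 genes of each direction whose interval bound lay farthest from 1 are named; Mptx1 at -8.20 and Lrg1 at 7.23 are the extremes.

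The largest upward ratio of an abundant gene was that of Clca4b (gene 99709, chromosome 3, 144910921 to 144932529 in GRCm38.p6), a member of the CLCA family of chloride channel regulators. It had 72 reads in the control and 7526 in the DSS day 1 library, 3.13 against 288 RPKM, a ratio of 91.8 (interval 72.8 to 117). Unique reads of this gene depend on how its near-identical family members were separated. Its neighbours Clca4a (92.4 against 222 RPKM) and Clca3b (176 against 389 RPKM) were higher too, at 2.40-fold and 2.21-fold, whereas the goblet cell member Clca1 was lower. St3gal4, a sialyltransferase that caps glycans, had 15 and 1198 reads (70.1-fold, interval 42.3 to 126), and none of the other 35 measured enzymes of mucin O-glycans came near it. Lrg1, a secreted leucine-rich glycoprotein of the acute phase, had 2 and 342 reads, a ratio of 150.1 with an interval of 41.2 to 1245. Ly6d, a GPI-anchored surface protein, had 23 and 1375 reads, or 4.32 against 227 RPKM.

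In the other direction Mptx1, a mucosal pentraxin (gene 66289, chromosome 1, 174330518 to 174332877), stood alone. It had 11102 reads in the control and 43 in the DSS day 1 library, 1804 against 6.13 RPKM, and was 294-fold lower (interval 218 to 407). The sugar-phosphate transporter gene Slc37a2 had 3312 and 173 reads and was 21.8-fold lower (18.7 to 25.6). Tppp3 and Tppp, which promote tubulin polymerization, had 670 and 28 reads and 1572 and 105 reads, 27.3-fold and 17.1-fold lower. Klk15, a kallikrein-type protease, had 64 control reads and none after DSS, at least 24.3-fold lower against the floor (interval bound 19.2). The remaining genes of the 15 with the most distant bound were Prss23, Cfd, Cyp2d12, Galnt17, Slc30a10, Syn2, Itih2, S100g, Car3 and Sfrp1, all between 15.1-fold and 68.3-fold lower. For Cfd, Galnt17 and Slc30a10 this rests on a single read in the DSS library, with intervals of 11.8 to 2744, 9.97 to 2339 and 9.76 to 2294. The corresponding upward genes not yet named were Krt90, Hspa1a, Saa3, Plat, Hspa1b, Prss22, Krt13, Aldh1a3, Reg3b, Mmp10 and Nos2. They had between 0 and 43 control reads against 56 to 986 after DSS.

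Epithelial markers were high in both libraries. The 16 epithelial identity genes had a median log2 ratio of 0.21, and 14 of them lay within 2-fold. Epcam, the epithelial adhesion molecule, was at 718 RPKM in the control and 812 after DSS, the brush border protein villin (Vil1) at 256 and 327, and the simple keratin Krt8 at 3127 and 3865. Krt20, a keratin of differentiated surface cells, was the member above 2-fold, at 448 and 941 RPKM, and Phgr1 was the member below it, at 1385 and 550. None of 26 tight junction and desmosome genes was 2-fold higher or lower, with a median of 0.02. Occludin (Ocln), at 55.6 and 28.1 RPKM, was the one nearest to 2-fold, at 1.98-fold lower.

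Colonocyte genes split. Among 20 markers of absorptive colonocytes 5 were at least 2-fold higher and 4 at least 2-fold lower (median -0.05). Carbonic anhydrase Car1 was 4.15-fold higher, at 368 RPKM in the control and 1527 after DSS, and the sodium/proton exchanger Slc9a3 was 2.37-fold higher, at 43.8 and 104. Membrane-bound carbonic anhydrase Car4 went the other way, at 1326 and 579 RPKM, as did the chloride/bicarbonate exchanger Slc26a3, at 469.8 and 175 RPKM. The water channel Aqp8, at 287 and 274 RPKM, and the guanylin gene Guca2a, at 1310.1 and 1196 RPKM, lay close to 1.

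Secretory and transport functions of the epithelium were lower in part, as the paired plot of levels shows. No goblet cell gene was 2-fold higher and 5 of 20 were 2-fold lower (median -0.56). These were Ang4, an antibacterial angiogenin, with 950 and 139 reads (178 against 22.9 RPKM, 7.78-fold), Klk1, a tissue kallikrein (873 against 281 RPKM), Clca1, a mucus-processing protein (2374 against 765 RPKM), the mucus component Fcgbp (824 against 325 RPKM) and the lectin Reg4 (274 against 137 RPKM). The gel-forming mucin itself, Muc2, was at 1180.0 and 892 RPKM, 1.32-fold lower, and the lectin Zg16 at 4704 and 3756. Above 1 but short of 2-fold were the resistin-like Retnlb (1227 and 2236 RPKM) and the protein disulfide isomerase Agr2, which folds mucins (943 and 1496 RPKM). Ang4 belongs to a family of near-identical genes, so its unique reads are uncertain to that extent. In a pooled tissue RNA, fewer cells of a type and less RNA per cell cannot be told apart.

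Tuft cells showed the most one-sided list among the lineages. Of 24 measured markers 11 were at least 2-fold lower and none 2-fold higher (median -0.83), and 21 lay below 1. With the interval bound nearest to no change the median of this list was 0.0. Several markers had few reads, and at 10 to 30 reads over both libraries 27.2% of all compared genes were 2-fold lower, at 31 to 100 reads 17%. The taste-pathway cation channel Trpm5 had 158 and 42 reads (4.29-fold lower, interval 3.03 to 6.17), the kinase Dclk1 172 and 56, the prostaglandin D synthase Hpgds 108 and 29, and the transcription factor Spib 153 and 41. The lineage regulator Pou2f3 had only 18 and 9 reads, and its interval of 0.972 to 5.76 includes no difference. Sh2d6 and Sucnr1 had no reads.

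Genes of crypt stem cells and of Wnt signalling mostly lay near or below 1, with 2 of 22 higher, 2 lower and a median of -0.31. The 9.09% called in each direction was near the shares over all compared genes, 6.75% higher and 9.02% lower. Axin2, a direct Wnt target and feedback inhibitor, was 3.05-fold lower with 654 and 244 reads, and Ascl2, a stem cell transcription factor, 2.54-fold lower with 98 and 44. Lgr5, the stem cell receptor for R-spondins, had 98 and 72 reads (1.55-fold lower, interval 1.13 to 2.13). Prominin (Prom1), at 45.2 and 126 RPKM, and the hyaluronan receptor Cd44, at 6.72 and 14.02, were the members above 2-fold. Enteroendocrine genes were balanced, with 3 higher, 3 lower and 20 between of 26, or 11.5% in each direction.

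**Figure D2:**
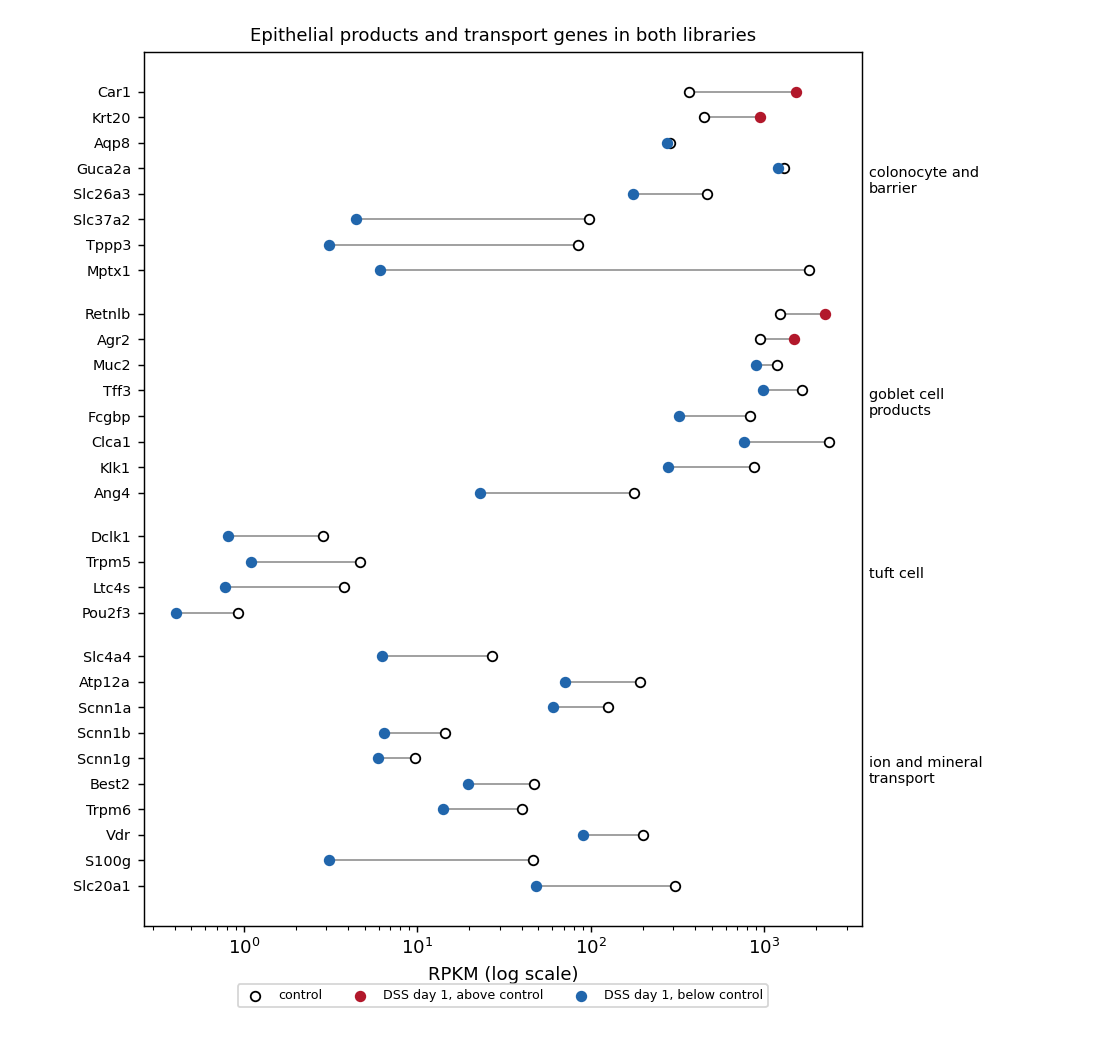
RPKM on a log axis in the control library (open circles) and the DSS day 1 library (filled circles, red above and blue below the control) for 30 genes of colonocytes and barrier, goblet cells, tuft cells and transport. Points are single pools without error bars; Mptx1 spans 1804 to 6.13 RPKM and S100g 46.8 to 3.10, while Aqp8 and Guca2a nearly coincide.

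Transport genes for anions lay low as a group. Only 2 of 17 chloride and bicarbonate transport genes were above 1, and 5 were at least 2-fold lower against 1 at least 2-fold higher (median -0.20). Slc4a4, which loads bicarbonate across the basolateral membrane, was 4.28-fold lower with 1541 and 410 reads. The sulfate carrier Slc26a2 (233 against 86.3 RPKM), the calcium-gated channels Best2 (47.1 against 19.6 RPKM) and Ano1 (91.0 against 40.3 RPKM) and Slc26a3 completed the 5. Cftr, the apical chloride channel, was at 27.999 and 23.9 RPKM.

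Among 25 genes of sodium, proton and potassium transport 5 were lower and 1, Slc9a3, was higher (median -0.33). The epithelial sodium channel was lower in all 3 subunits, 2.08-fold for Scnn1a, 2.27-fold for Scnn1b and 1.64-fold for Scnn1g, and the mineralocorticoid receptor Nr3c2, through which aldosterone acts, was 2.13-fold lower. Atp12a, the colonic proton/potassium pump, was at 194 and 71.2 RPKM, and Fxyd4, a regulator of the sodium pump, at 71.6 and 12.4.

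In the calcium and vitamin D list 4 of 11 measured genes were at least 2-fold lower, none was higher and 7 lay between (median -0.47). The vitamin D receptor Vdr was at 199 RPKM in the control and 89.8 after DSS, and the cytosolic calcium carrier S100g, a vitamin D target, had 172 and 13 reads, 15.1-fold lower (8.58 to 28.9). Trpm6, a magnesium channel, was 2.86-fold lower, and the manganese exporter Slc30a10 had 50 reads in the control and 1 after DSS. The calcium channel Trpv6 had 74 and 47 reads (1.79-fold lower, interval 1.23 to 2.64). Among phosphate carriers, Slc20a1 was at 308 and 48.5 RPKM, 6.35-fold lower, and Slc34a2 was at 46.3 and 12.6. In the wider list of nutrient and solute transporters 8 of 28 were lower and 4 higher, among them the peptide transporter Slc15a1 (95.05 against 30.8 RPKM) below and the lactate exporter Slc16a3 (7.43 against 23.6 RPKM) above.

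Antimicrobial and acute phase genes gave the highest median of the lists described here, 3.52, with 15 of 20 measured members at least 2-fold higher and 2 lower. The summed level of the list was 2070 RPKM in the control and 1596 after DSS. Saa3, Reg3g, S100a8 and S100a9 had so few control reads that they passed the minimum through the DSS library, which favours a call of higher. Saa3 had 7 and 256 reads, 1.72 against 55.2 RPKM (32.1-fold, interval 15.4 to 80.7). The bactericidal C-type lectins Reg3b and Reg3g had 10 and 265 and 3 and 93 reads, ratios of 23.3 (12.5 to 49.1) and 27.2 (9.03 to 134). The protease inhibitor Slpi was at 3.50 and 56.4 RPKM, and Lcn2, which withholds iron from bacteria by binding siderophores, at 0.765 and 11.3. Both subunits of calprotectin were low in the control, with 1 read of S100a8 against 40 (35.1-fold, interval 5.95 to 1421) and 3 of S100a9 against 70 (20.5-fold, 6.73 to 102). The abundant serum amyloid genes Saa1 (1283 and 941 RPKM) and Saa2 (113 and 85.1 RPKM) did not share this direction, and Wfdc2, at 334 and 134 RPKM, was 2.49-fold lower. Reg1, Reg3a, Camp, Orm1, Orm2 and Itih4 had no reads.

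Part of the cytokine and chemokine genes were higher, from very low control levels. Of 11 measured CXC chemokines 7 were at least 2-fold higher and none was 2-fold lower (median 2.27, and 0.67 with a minimum of 50 reads), while the summed level of the list was 94.3 RPKM in the control and 93.99 after DSS. Those that attract neutrophils through CXCR2 led, with 11 and 160 reads of Cxcl5, 2 and 28 of Cxcl1 (12.3-fold, interval 3.10 to 106), 1 and 38 of Cxcl2 (33.4-fold, 5.64 to 1352) and 0 and 21 of Cxcl3, at least 6.15-fold higher. The interferon-induced T cell attractants Cxcl9 and Cxcl10 were 8.78-fold and 2.63-fold higher. Of 12 measured CC chemokines 5 were higher, 1 lower and 6 between (median 0.30), and their summed level was 263 and 189.6 RPKM. Ccl3 had 1 and 24 reads (21.1-fold, interval 3.44 to 866), whereas Ccl6, the most abundant, was at 196 and 103 RPKM. Among 9 measured cytokines of acute inflammation 5 were higher and 1, Il15, was lower, and 12 were under the read minimum. Il1b had 13 and 205 reads and Tnf 5 and 55. The alarmin Il33 had 14 and 191 reads, and its receptor gene Il1rl1 8 and 128. Il6 and Il22 had no reads in either library. Socs3, a feedback inhibitor downstream of cytokine receptors, was at 2.71 and 16.7 RPKM, 6.15-fold higher, while most of the NF-kB list stayed close to 1 (3 higher, 2 lower, 22 between, median 0.01).

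**Figure D3:**
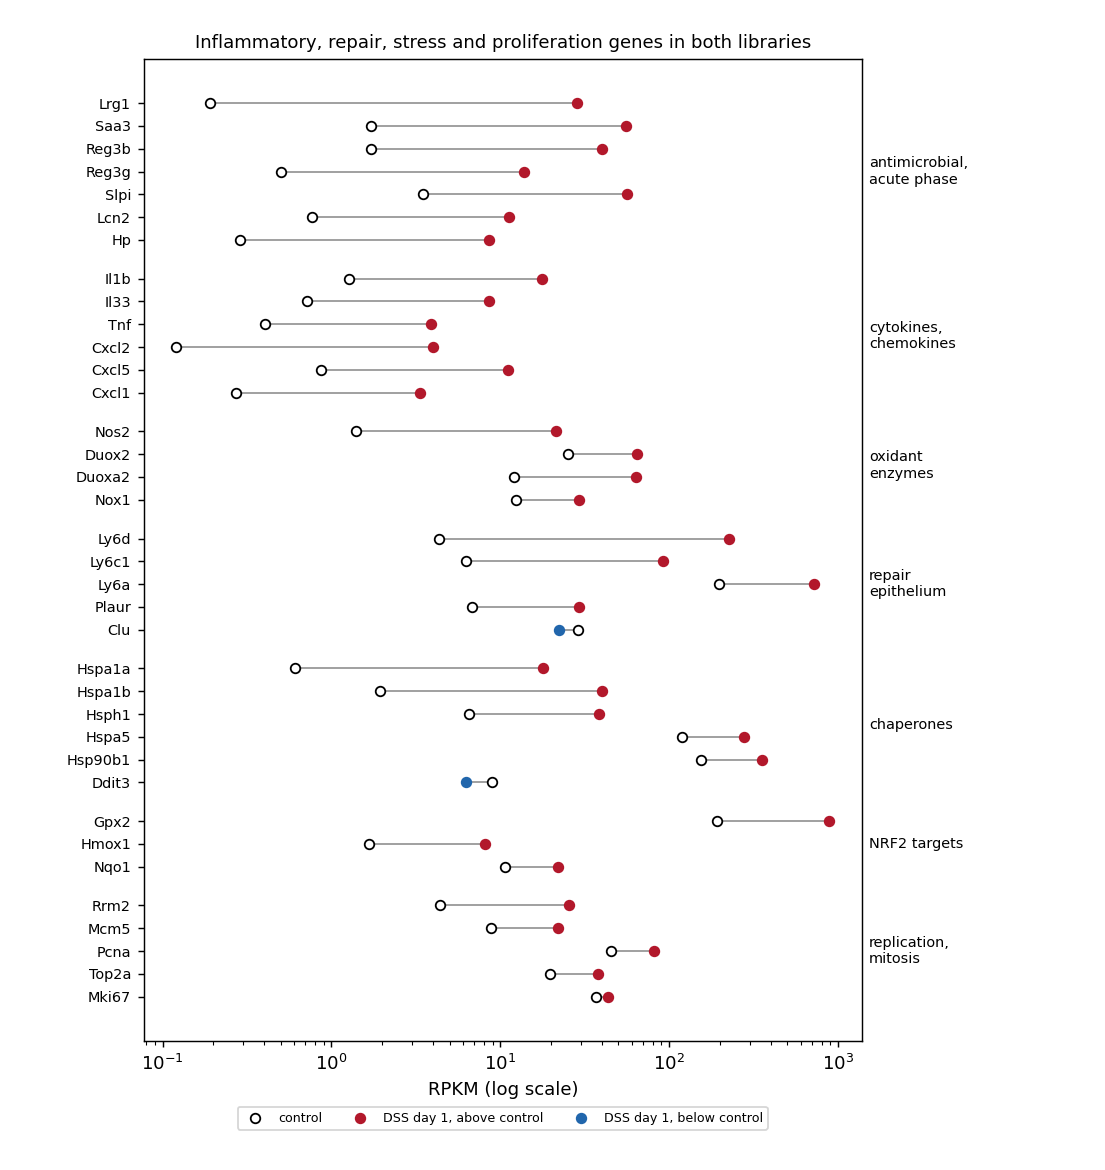
RPKM on a log axis in the control library (open circles) and the DSS day 1 library (filled circles, red above and blue below the control) for 36 genes in 7 groups, from antimicrobial genes to replication and mitosis. Each point is 1 pool without an error bar; most antimicrobial, cytokine and chemokine genes start below 2 RPKM, whereas Hspa5, Hsp90b1, Gpx2 and Ly6a start above 100 RPKM, and Clu and Ddit3 are the members drawn below their control level.

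The oxidant-producing enzymes were higher together, 7 of 12 at least 2-fold and none 2-fold lower (median 1.21). Inducible nitric oxide synthase Nos2 had 43 and 747 reads (15.3-fold, interval 11.2 to 21.3). Dual oxidase 2, Duox2, which makes hydrogen peroxide at the apical surface, was at 25.2 and 64.6 RPKM, and its maturation factor Duoxa2 at 12.05 and 64.0. The colon NADPH oxidase Nox1 was at 12.4 and 29.2 RPKM and its partner Cyba at 40.1 and 91.0. In the prostaglandin and leukotriene list Ptgs2, the inducible cyclooxygenase, was the single member 2-fold higher (6 and 73 reads), and 5 of 19 were lower, including the prostaglandin receptor Ptger3 (55 and 18 reads).

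Of 25 gasdermin, inflammasome and necroptosis genes 4 were higher, 6 lower and 15 between (median 0.12). Nlrp3, an inflammasome sensor, had 0 and 25 reads, at least 7.32-fold higher. The necroptosis genes Ripk3 (11.1 and 39.9 RPKM), Mlkl (12.5 and 26.0 RPKM) and the nucleic acid sensor Zbp1 (13.7 and 37.0 RPKM) were 3.58-fold, 2.08-fold and 2.71-fold higher. All 4 measured genes of the gasdermin C family were lower, with Gsdmc3 at 103 and 20.3 RPKM, Gsdmc2 at 214 and 85.1, Gsdmc at 6.85 and 2.84 and Gsdmc4 at 346 and 172. Gsdma (27 and 15 reads) and the inflammatory caspase Casp4 (85 and 48 reads) were the other members at least 2-fold lower. Gsdmd, the pore former of pyroptosis, was at 74.1 and 98.6 RPKM.

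Interferon genes were modestly shifted. Antiviral genes had a median of 0.31, with 29 of 35 above 1 but 4 at least 2-fold higher, namely Ifitm3 (19.3 and 74.4 RPKM), Ifit2, Zbp1 and Ifit3b. The regulator Irf7 stood at 75.4 and 73.0 RPKM. Interferon gamma targets had a median of 0.58, with 7 of 20 higher, among them the tryptophan-degrading enzyme Ido1 (47 and 140 reads) and the ubiquitin-like Ubd (27 and 70 reads). Antigen presentation differed little, with 1 of 23 class I genes, the chaperone calreticulin, and none of 12 class II genes 2-fold higher. B2m was at 916 and 1106 RPKM and Cd74 at 112 and 158.

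Markers of several cell types other than epithelium also differed, and their part in them was not tested. Neutrophil markers were 2-fold higher in 12 of 13 measured genes, and another 3 were under the read minimum. The summed level of the list was 3.28 RPKM in the control and 42.4 after DSS, from 53 and 343 reads. Members other than Cxcr2 had so few control reads that they passed the minimum through the DSS library, which favours a call of higher. Clec4e had 0 and 42 reads, at least 12.3-fold higher, and Retnlg 0 and 15, at least 4.39-fold higher, while the receptor Cxcr2 had 34 and 33. Camp, Elane, Mpo, Ly6g, Mrgpra2b and Stfa1 had no reads. All 18 macrophage and monocyte markers were above 1 and 11 were at least 2-fold higher, with a summed level of 85.0 and 169 RPKM. Fibroblast and matrix markers were 2-fold higher in 13 of 17, with a summed level of 26.3 and 88.6 RPKM. In that list the collagen gene Col1a1 was at 1.16 and 7.71 RPKM and the proteoglycan Dcn at 2.08 and 11.8. Of 5 measured red blood cell genes 4 were higher and 1 was lower, at a log2 ratio of -3.65, with 40 and 144 reads over the list. The hemoglobin gene Hbb-bs was at 3.88 and 16.3 RPKM. Among T and NK cell genes 5 of 18 were 2-fold lower and 2 higher, and among B and plasma cell genes 4 of 12 were lower and 1 higher, with Cd3e at 33 and 17 reads and Cd79a at 81 and 43. These genes had few reads, and at 10 to 30 reads over both libraries 27.2% of all compared genes were 2-fold lower, at 31 to 100 reads 17%. Of 4 measured fat cell genes 3 were lower and 1 higher, and another 5 were under the read minimum: Cfd, Adipoq and Fabp4 had 60, 14 and 20 reads in the control and 1, 1 and 3 after DSS, and Cidec had 19 and 49. Mast cell and eosinophil genes had 4 of 8 measured members higher and 2 lower (median 0.81), with 810 and 703 reads over the list. The lists given next did not lie higher as a group. Smooth muscle had 2 of 10 genes higher and 1 lower (median -0.17), endothelium 1 of 9 higher (median -0.22) and dendritic cells 2 of 5 lower and none higher.

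The median of each list and the spread of its members are shown in the plot of 30 lists. Every proteasome and DNA replication gene lies to the right of the all-gene median, though few reach far, whereas the antimicrobial, neutrophil and protease lists have long right-hand tails and a few members on the left.

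**Figure D4:**
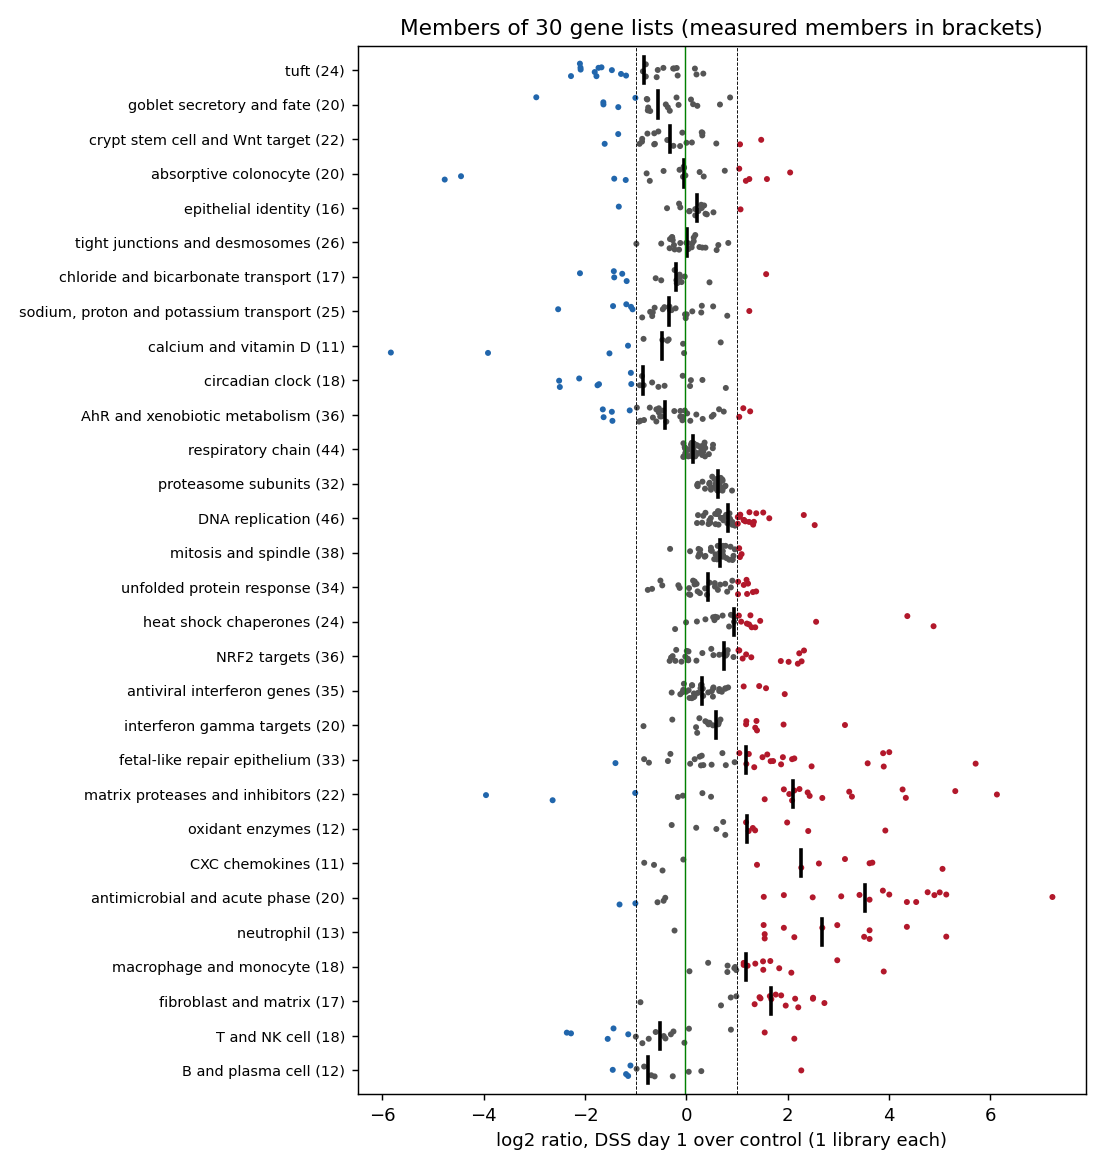
Each dot is 1 measured gene of a list and the horizontal axis is the log2 ratio of DSS day 1 over control; red dots are at least 2-fold higher, blue dots at least 2-fold lower, black bars are list medians, the green line is the median of all genes (-0.02) and dashed lines mark 2-fold. List medians run from -0.86 for circadian clock genes to 3.52 for antimicrobial and acute phase genes.

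Genes of fetal-like repair epithelium, a state in which injured colon re-expresses genes of the fetal gut, were higher in 18 of 33 measured members and lower in 1 (median 1.19). After Ly6d came Ly6c1, with 42 and 708 reads, and the widely used marker Ly6a (Sca-1), at 196 and 719 RPKM, 3.66-fold higher. S100a11 was at 396 and 1488 RPKM, the calcium-binding Anxa2 at 387 and 881, and the urokinase receptor Plaur at 6.82 and 29.0. Clu, a marker of revival stem cells, was at 28.6 and 22.3 RPKM, 1.28-fold lower, and Ly6g6c was the member 2-fold lower. EGF receptor ligands differed among themselves. Epiregulin (Ereg) had 10 and 143 reads and amphiregulin (Areg) 143 and 442, whereas Egf had 53 and 10 and Hbegf was at 11.9 and 13.2 RPKM.

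Matrix proteases and their inhibitors had 15 of 22 members at least 2-fold higher and 3 lower (median 2.11). With the interval bound nearest to no change the median was 0.96, and several members were compared only because of their DSS reads. Stromelysin-2, Mmp10, had 1 and 80 reads (70.2-fold, interval 12.2 to 2808), collagenase Mmp13 4 and 92, matrilysin Mmp7 2 and 44 (19.3-fold, 5.04 to 164), and the plasminogen activator Plat 4 and 181. All 3 members that were lower are tissue inhibitors of metalloproteinases: Timp3 had 776 and 142 reads, Timp4 68 and 5 and Timp2 was at 2.15 and 1.07 RPKM. Timp1, the inducible inhibitor, had 2 and 12 reads (5.27-fold, interval 1.17 to 48.5). Squamous markers were scarce, with 4 of 16 measured and 3 of these higher. Among the higher ones Krt13 had 0 and 56 reads, at least 16.4-fold against the floor (interval bound 12.9), and Krt14 had 11 and 52. Krt5, Krt17 and Trp63 had no reads.

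DNA replication genes lay above 1 in 46 of 46 cases, with 17 at least 2-fold higher and a median of 0.83. Rrm2, the regulated subunit of ribonucleotide reductase, had 74 and 489 reads (5.80-fold, interval 4.54 to 7.51). Cdc45, a component of the replicative helicase, had 26 and 148 reads, and the helicase subunit Mcm5 was at 8.85 and 21.96 RPKM. Mitosis and spindle genes were above 1 in 37 of 38 but past 2-fold in 3, Aurka, Bub1 and Cdca8 (median 0.66). Mki67, the common proliferation marker, was at 36.8 and 43.4 RPKM, 1.18-fold higher, and Top2a at 19.8 and 37.8. Protein synthesis and turnover genes shared small upward ratios: 30 of 32 ribosome biogenesis genes, 20 of 20 cytosolic tRNA synthetase genes and 32 of 32 proteasome subunits were above 1, with medians of 0.50, 0.47 and 0.63. No proteasome gene reached 2-fold, and the largest ratio was that of Psmb7, at 51.2 and 95.8 RPKM.

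Chaperones of the endoplasmic reticulum were higher than most of their regulators. In the unfolded protein response list 28 of 34 genes were above 1 and 8 at least 2-fold higher, with none 2-fold lower (median 0.44). Sdf2l1 was 2.60-fold higher, Creld2 2.49-fold, and Manf was at 34.3 and 78.3 RPKM. The main luminal chaperone BiP, gene Hspa5, was at 119 and 278 RPKM, its HSP90 partner Hsp90b1 at 154 and 353, and calreticulin, Calr, at 353 and 775. The transcription factor Xbp1 was at 79.9 and 93.4 RPKM, the sensor Ern1 at 12.4 and 7.75, its epithelial form Ern2 at 57.9 and 34.2, and the stress factor Ddit3 (CHOP) had 60 and 48 reads, with an interval that includes no difference.

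The promoters of these genes were searched for the ER stress element, read here as CCAAT followed after 9 bases by CCACG, on either strand of the 250 bases before each start site in the RefSeq promoter table (GRCm38.p6). It was found for 9 of the 29 unfolded protein response genes with a promoter in that table, or 31%. Of all 27025 genes in it 0.130% had the element, and of the 10704 compared genes in it 0.159%. The element was chosen to go with this list, so its share there is a description and not a test. Among compared genes 17 had the element. Of these 8 were at least 2-fold higher, 8 lay between and 1 was lower, and the element was thus present in 1.15% of the 698 higher genes with a promoter, 0.110% of the 913 lower ones and 0.0880% of the 9093 between. The higher genes Derl3 (2 and 11 reads) and Acnat2 (5 and 14) and the lower gene Xlr3a (8 and 4) rest on few reads. At 10 to 30 reads over both libraries 19.6% of all compared genes were higher and 27.2% lower. Higher genes of the list without these letters in the window included Sdf2l1 and Pdia4, a disulfide isomerase. Of the 9 list members with the element 4 were at least 2-fold higher (median 0.88), against 2 of the 20 without it (median 0.32). Canx, Dnajc3, Syvn1 and Ero1b have it too, at log2 ratios of 0.56, 0.57, 0.17 and -0.47. The elements of the 4 higher members are shown with that of Pdia6, the next by ratio, to show the shared letters, each written along the strand on which it reads CCAAT to CCACG, with both blocks in capitals.
Creld2 and Alg12, chr15:88819515-88819543, minus strand: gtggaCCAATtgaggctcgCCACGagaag
Hspa5, chr2:34772020-34772048, plus strand: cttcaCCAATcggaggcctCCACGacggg
Hsp90b1, first element, chr10:86705528-86705556, plus strand: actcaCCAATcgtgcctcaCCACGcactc
Hsp90b1, second element, chr10:86705633-86705661, minus strand: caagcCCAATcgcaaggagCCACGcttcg
Calr, chr8:84847070-84847098, plus strand: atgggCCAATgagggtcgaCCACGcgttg
Pdia6, chr12:17266486-17266514, plus strand: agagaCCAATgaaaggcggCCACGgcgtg

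Creld2 and its divergent neighbour Alg12, a mannosyltransferase of N-glycan assembly, share 1 element, and both were higher: Alg12 had 108 and 259 reads, 2.11-fold (interval 1.68 to 2.66). Pdia6, a disulfide isomerase, was at 57.1 and 105 RPKM. Another 4 motifs were searched in the same windows, and they set the higher genes less apart or not at all. The antioxidant response element was found for 13.3% of higher and 14% of all compared genes, the E2F element for 3.01% and 3.75%, the E-box for 7.02% and 9.63%, and the heat shock element for 0.716% and 0.439%. In the lists they were chosen for, these motifs too were more frequent, at 22.6% of NRF2 targets and 23.7% of DNA replication genes. Clock genes had the E-box in 35.7%, and heat shock genes had their element in 15.8%. Of 9 replication genes with the E2F element 5 were higher, against 10 of 29 without it. For heat shock genes this was 2 of 3 against 8 of 16, and for NRF2 targets 1 of 7 against 8 of 24. A match is a description of the letters and not evidence that a factor bound there.

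Cytosolic chaperones were higher by larger ratios. Among 24 heat shock genes 11 were at least 2-fold higher and none 2-fold lower (median 0.95). The inducible HSP70 genes Hspa1a and Hspa1b, a near-identical pair, had 13 and 437 and 42 and 986 reads, ratios of 29.5 (17.1 to 55.9) and 20.6 (15.1 to 28.8). Hsph1, their exchange factor, was at 6.53 and 38.6 RPKM, the inducible HSP90 gene Hsp90aa1 at 82.5 and 227, and the mitochondrial chaperonins Hspd1 and Hspe1 at 63.4 and 163 and at 38.7 and 94.9. The constitutive HSP70, Hspa8, went from 749 to 1439.9 RPKM between the libraries, 1.92-fold. Hsf1, the heat shock transcription factor, was at 15.6 and 18.1.

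Genes that answer oxidant and amino acid stress were higher in part. NRF2 targets had 11 of 36 at least 2-fold higher, none 2-fold lower and a median of 0.75. The epithelial glutathione peroxidase Gpx2 was at 193 and 887 RPKM, 4.61-fold, heme oxygenase Hmox1 had 21 and 116 reads, and the quinone reductase Nqo1 was at 10.7 and 22.1 RPKM. Nfe2l2, which encodes NRF2, was at 90.2 and 91.8. ATF4 targets had 10 of 25 higher (median 0.42), including the serine synthesis enzyme Psat1 (72 and 326 reads), the folate enzyme Mthfd2 (27 and 104) and asparagine synthetase Asns (206 and 531). Of 28 p53 targets 1 was higher and 1 lower (median 0.02), and Cdkn1a was at 252 and 231 RPKM.

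Energy metabolism genes differed less. No respiratory chain gene was past 2-fold in either direction (44 measured, median 0.14), and in the citrate cycle only Pck1, which feeds gluconeogenesis, was, at 62.5 and 18.0 RPKM. Of 31 genes of butyrate use and fatty acid oxidation 2 were higher, 2 lower and 27 between (median 0.10). The kinase Pdk4, which restrains pyruvate oxidation, had 31 and 199 reads and Acot12 had 1 and 13. The mitochondrial coactivator Ppargc1a was at 19.8 and 6.16 RPKM, and the acyl-CoA synthetase Acsm3 at 89.3 and 37.5. Glycolysis and hypoxia genes leaned upward, 24 of 28 above 1 and 3 at least 2-fold higher (median 0.43). Xenobiotic metabolism leaned down by its median of -0.42, with 25 of 36 genes below 1. The 5 genes at least 2-fold lower (13.9%) and 3 higher (8.33%) were not far from the shares over all compared genes, 9.02% and 6.75%. Its members below included alcohol dehydrogenase Adh1 (897 and 289 RPKM), the sulfotransferase Sult1a1 (184 and 66.6) and the cytochrome P450 Cyp2s1 (129 and 59.4).

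Clock genes were lower in part. Of 18 measured members 7 were at least 2-fold lower and none 2-fold higher (median -0.86). The nuclear receptor Nr1d1 had 2219 and 584 reads, 4.33-fold lower (interval 3.95 to 4.75), and the output factor Dbp 203 and 41. Per3 had 207 and 70 reads and Cry2 281 and 97, whereas Arntl was at 20.4 and 19.4 RPKM and Per1 at 9.79 and 10.4. The labels do not state the hour of killing, so treatment and hour cannot be told apart. Of 23 measured rapid-response genes 3 were higher, 4 lower and 16 between (median -0.24). The lower ones were Fos (131 and 63.1 RPKM), Fosb (11.1 and 2.79), Atf3 (34.8 and 14.2) and Klf2 (7.54 and 1.20). Fosl1 (2 and 20 reads) and Ier3 (29 and 159 reads) were among the higher ones.

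Several lower and higher genes lie side by side in the genome, and those outside the lists (Cyp2d34, Evx2, Ly6k, Gml2, Ly6m, Shf and Slc28a2) are named for that position after their values were seen. Runs of at least 4 neighbouring compared genes on the same side of 2-fold were listed along RefSeq GRCm38.p6, and there were 9 upward and 7 downward. Only a part of them is described below, mostly runs of gene families, and some of the rest hold genes of different families. The longest run was on chromosome 15 (82370527 to 82690058), where 8 neighbouring compared genes of the Cyp2d cluster, a pseudogene among them, were lower. They ran from Cyp2d34, at 144.7 and 72.0 RPKM, to Cyp2d12, which had 359 and 27 reads. In the posterior HoxD cluster on chromosome 2 (74652989 to 74700208) Evx2, Hoxd13, Hoxd12, Hoxd11, Hoxd10 and Hoxd9 were all lower, with Hoxd10 at 137 and 33 reads and Hoxd13 at 50.6 and 21.5 RPKM. The HoxA genes of the distal colon did not follow, Hoxa13 being at 30.985 and 23.9 RPKM and Hoxa9 at 16.8 and 21.4. Hoxb13, which marks the distal end of the colon, was at 320.3 and 136 RPKM. The gasdermin C family formed another such run (chromosome 15, 63775971 to 63912319).

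Upward runs were made of Mmp13, Mmp12, Mmp3, Mmp10, Mmp8 and Mmp7 on chromosome 9 (7272514 to 7699585), of Cxcl5, Cxcl3, Cxcl1 and Cxcl2 on chromosome 5 (90759298 to 90905938), of Ly6d, Ly6k, Gml2 and Ly6m on chromosome 15 (74762056 to 74881704), and of Duox2, Duoxa2 and Duox1 with Shf and Slc28a2 on chromosome 2 (122279246 to 122461152). The Mmp genes of that run had 0 to 4 control reads, with Mmp3 at 0 and 15, Mmp8 at 0 and 13 and Mmp12 at 1 and 11. They were compared only because of their DSS reads, as were Cxcl1, Cxcl2 and Cxcl3, which favours a call of higher. Related neighbours can share reads where their sequences are alike. The Cyp2d, Gsdmc and Ly6 genes are uncertain to that extent.

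A few strong differences lay outside every list and were chosen after their values were seen. Sycn was at 1203 RPKM in the control and 164 after DSS, the transglutaminase Tgm3 at 542 and 111, and the selenium carrier Selenop at 1055 and 374. Another transglutaminase, Tgm2, went the other way, from 3.60 to 48.0 RPKM, as did the heparan endosulfatase Sulf2 (3.14 and 38.4), the transferrin receptor Tfrc (32.2 and 132) and the bacteria-binding peptidoglycan recognition protein Pglyrp1 (309.8 and 945).

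Values in the other treated pools place the DSS day 1 levels, each library being again 1 pool compared with the same control. Clca4b was at 643 and 509 RPKM on days 3 and 7 after DSS against 288 on day 1, and Ly6d at 244 and 138 against 227. Hspa1b stood at 40.2 RPKM on day 1, then 26.6 and 6.38, and Rrm2 at 25.5, 17.3 and 9.91. Mptx1 was at 6.13, 1.70 and 13.3 RPKM, still far below the control's 1804, whereas Clca1 was at 765, 1508 and 1853 against 2374. Nr1d1 was between 25.2 and 48.4 RPKM in all 6 treated libraries against 110.2 in the control. Mice given PhIP before DSS had 463 RPKM of Reg3b on day 1, against 40.0 with DSS alone, while Clca4b was at 240 and 288 in these same libraries. No test compares single pools.

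**Figure D5:**
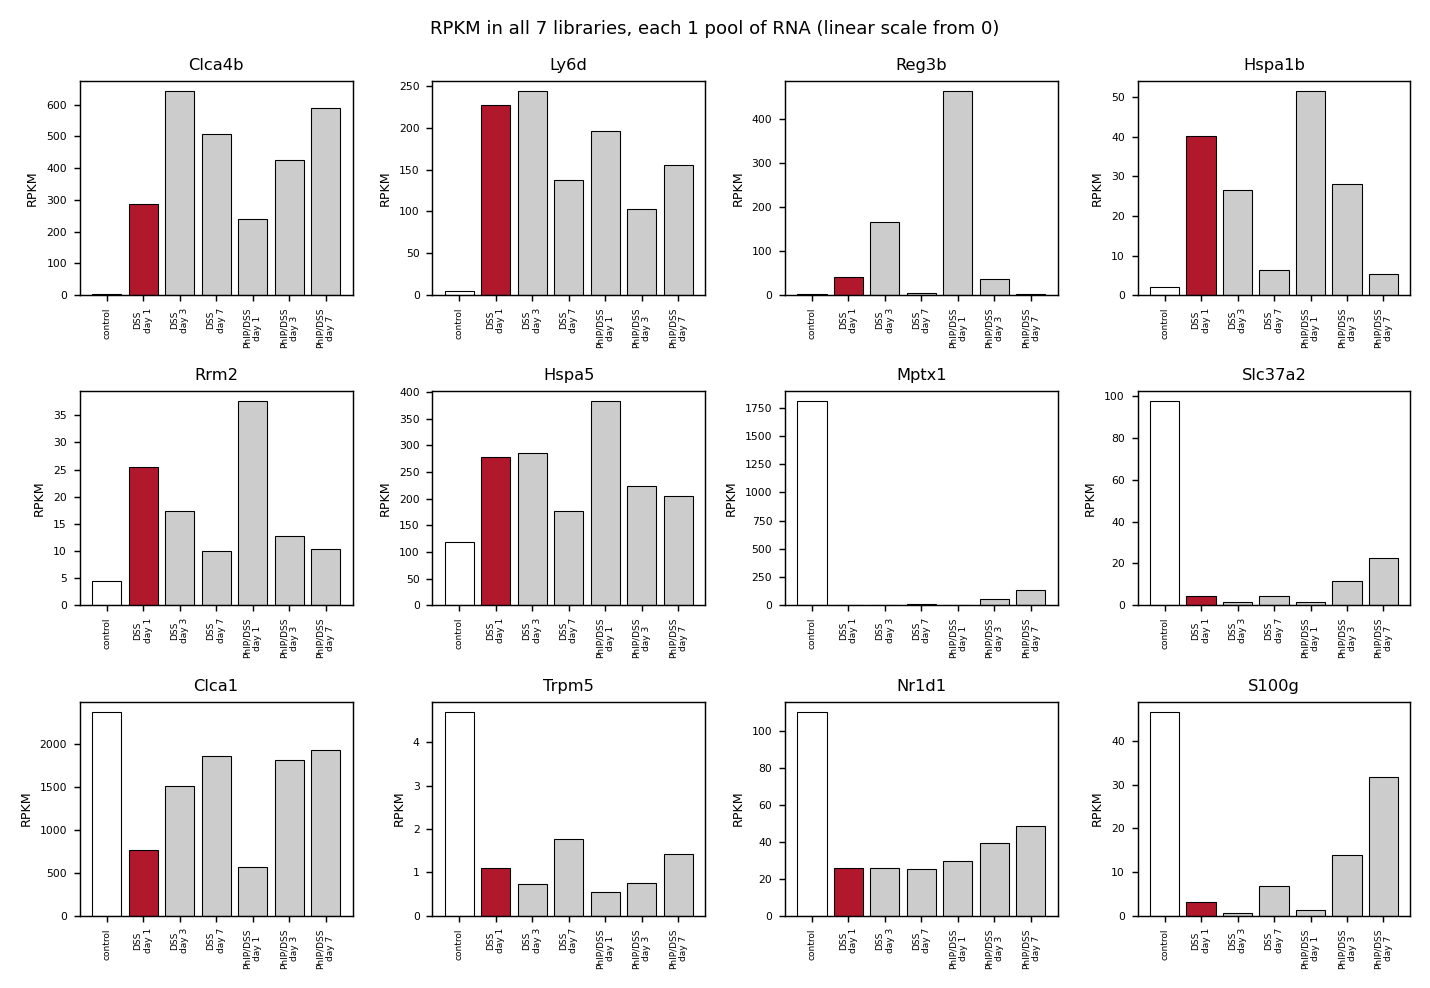
RPKM of 12 genes in all 7 libraries on linear axes from 0, with the control white, DSS day 1 red and the other 5 treated libraries grey; each bar is 1 pool of RNA without an error bar. Hspa1b and Rrm2 are lower on day 7 than on day 1 with and without PhIP while Clca4b is not, and Mptx1 and Slc37a2 stay below the control in all 6 treated libraries.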

How the data were processed

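Total RNA of 3 mice per group was pooled, enriched for poly(A) RNA and sequenced on an Illumina HiSeq instrument, per the labels' protocols. The authors deposited for each library a table of unique read counts per gene, gene length and RPKM, per the file headers. Recomputing the deposited RPKM from reads, length and total reads gave the same values to within a relative 5.6e-14. The submitters' processing notes name the mm10 build and FastQC, while the sources used here name no aligner, counter, annotation or strandedness. Without a stated strand, reads of overlapping or antisense genes cannot be told apart.

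Both tables were joined on the gene identifier, with missing genes entered as 0 counts, and identifiers were given RefSeq GRCm38.p6 symbols, which 13415 of the 13440 compared genes had. For 18 genes the stated length differed between the 2 libraries. Counts were divided by the library total; the ratio, its exact 95% conditional binomial interval (scipy 1.17.1) and the 2-fold call follow from these. Intervals and floors cover counting error only, and PCR copies are not separate molecules. The routine was tested on simulated data. Genes were named if among the 15 per direction with the interval bound farthest from 1, or if members of 74 gene lists; other names are marked. The comparison, the lists and their members were chosen with earlier results of these data known. Alternatives used edgeR 4.0.16 TMM and DESeq2 1.42.0 size factors for scaling only, other read minimums, another treatment of 0 reads, the deposited RPKM and the interval bound. List medians and counts are descriptions, without a test.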

Additional observations from a re-analysis of the deposited data

How the results depend on the processing

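The main limit is that each condition is 1 pool, so variation between mice, the day of dissection and library preparation cannot be separated from treatment at any depth. The counts of 907 genes at least 2-fold higher and 1212 at least 2-fold lower stayed within 1.5 times under TMM factors (947 and 1168), median-of-ratios factors (944 and 1169), totals without the 20 most abundant genes (903 and 1214), 0.5 added reads (862 and 1187), the deposited RPKM (907 and 1212) and no read minimum (1085 and 1521). They moved to 494 and 645 with a minimum of 50 reads, where fewer genes were compared, and to 341 and 377 with the interval bound nearest to no change, which by construction keeps differences beyond counting error. No scaling moved the median of all genes by more than 0.1 on the log2 scale. Of 74 list medians 48 lay above that of all genes, and between 38 and 51 did under the alternatives. The median of neuron and glia markers, -1.57 over 3 genes, was 2.70 with a minimum of 50 reads, where 1 gene was left. With the interval bound the medians of the antimicrobial, protease and CXC chemokine lists, 3.52, 2.11 and 2.27, were 1.88, 0.96 and 1.00; with a minimum of 50 reads they were 3.65, 1.26 and 0.67, and that of the CC chemokines, 0.30, was -0.002. The median of the tuft list, -0.83, was 0.0 with the interval bound. No paired analysis was possible because each group is 1 library.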
